A study of Sus scrofa with 18 samples.

Results

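Genes of neutrophils, monocytes and macrophages were followed in the RNA of pig serum before and during cardiogenic shock (CS) and during support by a percutaneous ventricular assist device (pVAD). The list held 37 genes, and a gene was taken as a member when a row of the deposited count table carried exactly its symbol. Of the 37 genes, 29 had such a row, out of 31908 rows in all. No row carried the symbols S100A9, LCN2, CXCR1, CXCR2, FPR1, FPR2, CYBB or ADGRE1, so these 8 genes are not members. Of the 29 members, 28 had reads in each of 17 libraries, and the remaining member, LYZ, had 0 reads in all 17.

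The animals were 6 female Danish Landrace pigs, 5 months old by the labels, with no genetic modification named. Venous serum was taken from each pig under anaesthesia at Baseline, after CS had been induced by microspheres injected into the left coronary artery, and while an Impella CP pump supported the left ventricle with CS still present. Thus the pVAD libraries carry the shock as well as the pump, and no animals were followed in shock without the pump. Each library was made from 100 ng of total RNA, and replicates 1 to 6 are the same 6 animals at each time point, so that the libraries of a time point are separate animals and those of an animal are not independent. CS replicate 6 was left out of the main comparisons, which leaves 6 Baseline, 5 CS and 6 pVAD libraries, and a value with it included is named as such.

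Neutrophils carry preformed antimicrobial proteins and proteases in granules and assemble an NADPH oxidase that makes superoxide when they are activated. Monocytes circulate in blood and can become macrophages, which take up particles through scavenger receptors. The transcription factor PU.1, encoded by SPI1, and the C/EBP factors direct the formation of these cells in the bone marrow, and the growth factor receptors CSF3R and CSF1R support the granulocyte and the monocyte lines. Serum is the liquid that remains once blood has clotted and the clot and cells are removed. The authors propose that most mRNA read in this serum likely came from degrading cells of unknown origin. In such material the number of cells of a type, the RNA per cell and its release from cells cannot be told apart.

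The 17 libraries held between 18229243 and 71488943 counts, and the 4 most abundant genes took 24.2 to 71.5% of a library. The unit of a level is CPM (counts relative to the library total) with TMM scaling, a normalisation that keeps most genes level between libraries. Since CPM does not account for gene length, levels are compared between libraries, for 1 gene or for the sum of a list. Such a sum is carried mostly by the genes with the most reads. Genes are ranked by mean CPM only to choose which members are named. Member reads were 0.0092 to 0.0566% of the counts in a library. TMM factors ran between 0.307 and 1.55, and the lowest belonged to CS replicate 4 (0.307) and pVAD replicate 6 (0.454). CS replicate 6 held 2484066 counts, with reads for 4 members only.

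All members but LYZ were read, which by itself does not tie the reads to these cells. The 5 cardiomyocyte genes and 5 endothelium genes with a row, listed for comparison, were read as well. The granule, oxidase and receptor members were read in every library, as were the monocyte and macrophage genes AIF1, CD14, CSF1R, CD68, MARCO, MSR1 and MRC1. LYZ, the lysozyme of neutrophil granules and monocytes, was at 0 in all 17 libraries. In a single library a count of 0 allows up to 3 reads, which is 0.0496 to 0.198 CPM at these depths. These limits cover counting error only. Neutrophil genes that are not members, LCN2, ELANE, PRTN3 and CD177, were at 0 in all 17 libraries too. Lists of other sources also held genes at 0, such as 2 of 7 red cell and 2 of 8 hepatocyte genes with a row. What gave such zeros was not tested, so a 0 does not show that the transcript was absent.

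Some libraries stood apart for these genes before any time points were compared. CS replicate 1 held the highest of the 17 values for 16 of the 28 members that were read, against 16.8% of all 26146 genes with at least 5 reads in total. Its ratio to the median of the 4 other CS libraries was 1.89 for the median member and 0.857 for the median gene. The ratio was 2-fold or more for 13 members, against 15.03% of all genes. The members were not all high in that library. LTF and MARCO had their lowest value of the 17 there.

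Replicate 6, an animal with Baseline and pVAD libraries but no CS library in the main comparisons, stood apart the other way. Both of its libraries lay below all 15 other libraries for 13 of the 28 members, against 15.3% of all genes. These were MPO, MMP9, NCF1, NCF4, CSF3R, ITGB2, ADGRG3, PADI4, ALOX5, CEBPE, SPI1, AIF1 and CSF1R. The opposite was seen for 1 member, MSR1, whose level was above all other libraries in both, as for 14.0% of all genes. Other lists stood apart in this animal as well. A second list of myeloid genes (33 of 38 with a row, 3 at 0) summed to 343 CPM at Baseline and 335 CPM on pVAD, against 415 to 553 CPM in the other libraries. The B cell list (5 of 6 with a row, 1 at 0) was lowest there, at 89.6 and 90.8 CPM against 108 to 191 CPM, as was the cardiomyocyte list (5 of 8 with a row), at 22.9 and 19.3 CPM against 30.9 to 51.4 CPM. The hepatocyte list (8 of 8 with a row, 2 at 0) was highest there, at 101.1 and 109 CPM against 54.98 to 89.0 CPM. The part of these sources in the members' low levels was not tested. Because this animal is in the Baseline and pVAD groups and not in the CS group, its low levels bear on every comparison with CS, and values for the 5 complete animals are given where they change a call.

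**Figure D1:**
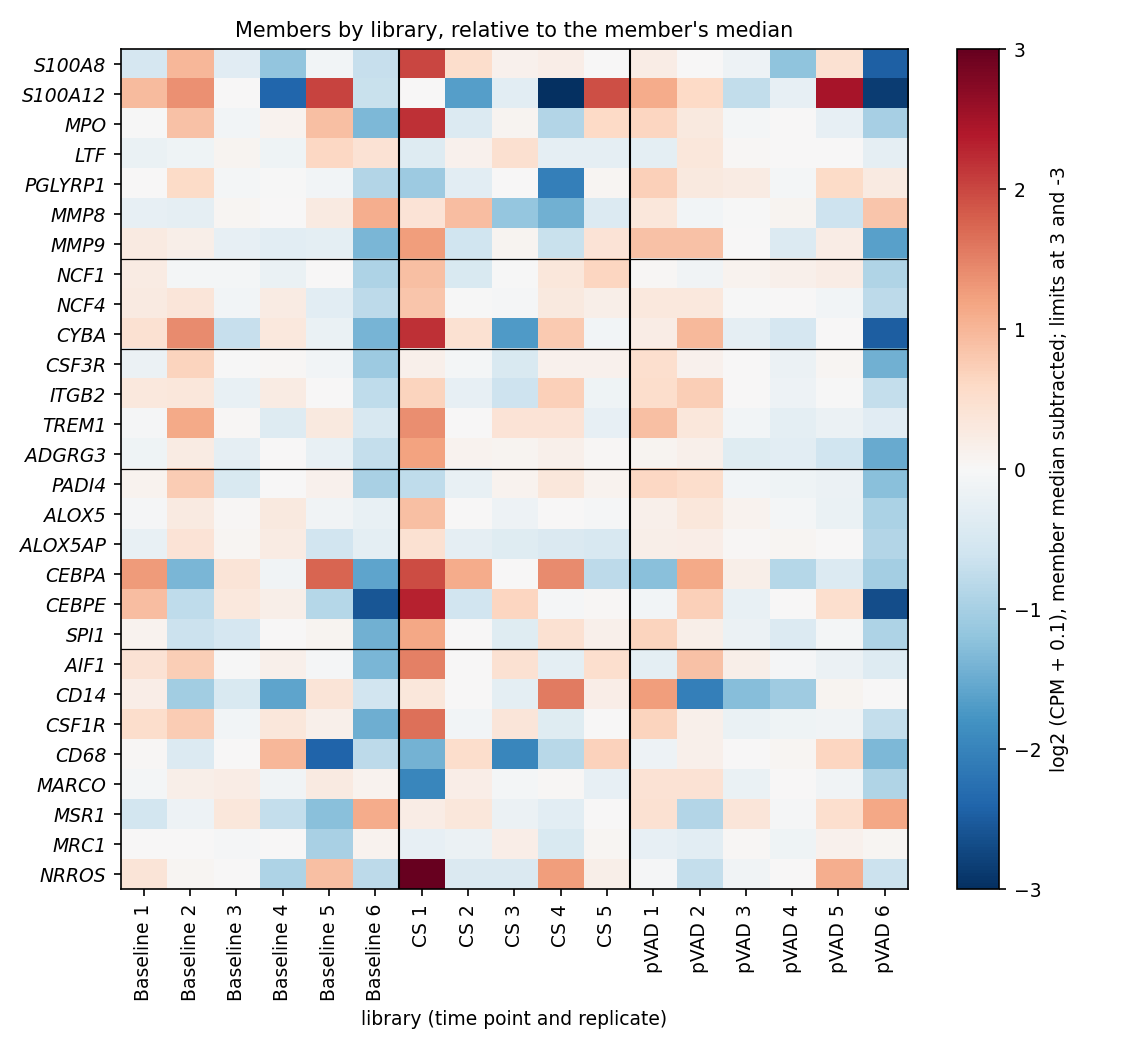
Level of the 28 members that were read (rows, in the order granule and alarmin proteins, oxidase, receptors and adhesion, enzymes and transcription factors, monocyte and macrophage genes) in the 17 libraries (columns, by time point and replicate), as log2 (CPM + 0.1) with the median of each member subtracted and colours limited at 3 and -3. CS 1 is the highest column for 16 members, Baseline 6 and pVAD 6 are low for 13 members at once, and MARCO runs against its neighbours in CS 1.

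A member was called where its fold change exceeded 1.5 in either direction and its edgeR p, not adjusted, was below 0.05. In CS vs. Baseline, 2 of 28 tested members were called, SPI1 and NRROS, beside 2.82% of all 26146 genes tested. Both were higher in CS, as were 1.59% of all genes, and 0 were lower, beside 1.24%. In pVAD vs. CS, 3 members were called, beside 2.43% of all genes. PGLYRP1 was higher on pVAD, beside 1.11% of all genes, and ADGRG3 and NRROS were lower, beside 1.32%. In pVAD vs. Baseline 0 of 28 were called by edgeR and 0 of 27 by DESeq2, which gave NRROS no p, and 0 had an unadjusted p below 0.05 in either tool. By edgeR 0.834% of all genes were called there, 0.444% higher and 0.39% lower. With Benjamini-Hochberg adjustment over all genes, edgeR and DESeq2 gave 0 members and 0 genes below 0.05 in each comparison, and the lowest adjusted p of any member by edgeR was 0.999. Whatever the fold, edgeR gave an unadjusted p below 0.05 to the same 2 members in CS vs. Baseline, beside 3.09% of all genes, and to the same 3 in pVAD vs. CS, beside 2.66%. For every member and comparison the values of the 2 time points overlapped. The share of all genes that overlap was not counted, so this is a description of the members only. CS vs. Baseline and pVAD vs. CS share the CS libraries, so a library that is high in CS moves both.

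The middle of the list lay above 0 in CS vs. Baseline, with a median log2 fold change of 0.30 over the 28 members beside -0.0049 over all genes, and 19 of 28 members were above 0, against 49.3% of all genes. In pVAD vs. CS the median was -0.27 beside 0.018, with 10 of 28 members above 0, against 52.0% of all genes. Without CS replicate 1 these medians were 0.0049 and -0.020, with 14 and 11 of 28 members above 0, against 48% and 53.6% of all genes. Then 0 members passed the threshold by edgeR in either comparison, with 0 at an unadjusted p below 0.05. Over all genes the calls came to 1.86% and 1.48% in that setting, so 0 of 28 is close to the share of all genes. Over the 5 complete animals the medians were 0.19 and -0.15. By role, the median in CS vs. Baseline was -0.17 for the granule and alarmin proteins, 0.50 for the oxidase, 0.22 for receptors and adhesion, 0.34 for enzymes and transcription factors and 0.17 for the monocyte and macrophage genes. Without CS replicate 1 these came to -0.30, 0.11, -0.021, 0.11 and 0.044 in the same order of roles. In pVAD vs. CS the medians were 0.0068, -0.40, -0.21, -0.33 and -0.23, or 0.33, -0.15, -0.020, -0.071 and 0.00092 without CS replicate 1. In pVAD vs. Baseline the members were spread evenly around 0, with 14 above it, against 52.4% of all genes.

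Among the granule and alarmin proteins, 1 of 7 members with a row passed a threshold. PGLYRP1 encodes a peptidoglycan recognition protein stored in neutrophil granules. Its level in the pVAD libraries had a lowest value of 2.83, a median of 3.63 and a highest value of 4.94 CPM, against 1.35, 2.37, 2.96, 0.637 and 3.11 CPM in CS replicates 1 to 5. On pVAD every animal was above its own CS value, and only the lowest pVAD library lay within the CS range. The mean was 3.83 ± 0.74 CPM on pVAD and 2.08 ± 1.06 CPM in CS (SD, n = 6 and 5). The log2 fold change was 0.87 (SE 0.41, edgeR p = 0.0456, adjusted p = 0.999), and the exact two-sided permutation test of the CPM gave p = 0.00866, where 0.00216 is the smallest this design allows. Within animals the level was higher in 5 of 5, as for 2.70% of all genes, and the exact two-sided sign-flip test gave p = 0.0625, the smallest it allows. The edgeR call was lost without CS replicate 1 (log2 fold change 0.75), without CS replicate 4 (0.65) and without any of 9 other libraries. With CS replicate 6 included the direction turned to -3.35, since that library held 520 PGLYRP1 reads among its 2484066 counts.

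S100A12, an alarmin of granulocytes, differed mainly between animals. Replicate 5 had 10.1, 9.48 and 13.7 CPM at Baseline, in CS and on pVAD. Replicate 4 had 0.378, 0.182 and 2.02 CPM at the same times. All 3 libraries of replicate 5 exceeded every other library, which 0.382% of all genes showed for that animal. In CS vs. Baseline, S100A12 did not pass (log2 fold change -0.51, SE 0.85, exact permutation p = 0.558). Within animals it was lower in CS in 5 of 5, with differences of -5.67 to -0.196 CPM, as for 2.38% of all genes. An exact two-sided sign-flip test over these animals gave p = 0.0625, the smallest it allows. With a term for the animal (the replicate block) edgeR called S100A12, at a log2 fold change of -1.19 (SE 0.56, adjusted p = 1). It was then the only member called in CS vs. Baseline, beside 2.63% of all genes. S100A12 was named here after its values were seen.

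MPO, the myeloperoxidase of primary granules, had 38.8, 6.27, 8.90, 4.51 and 12.7 CPM in CS replicates 1 to 5, against a lowest value of 3.25, a median of 8.74 and a highest value of 15.9 CPM at Baseline. CS replicate 1 was far above every other library, and the other CS libraries lay within the Baseline range. MPO did not pass in CS vs. Baseline, at a log2 fold change of 0.51 (SE 0.46, exact permutation p = 0.669), and the value without CS replicate 1 was -0.30. On pVAD it ran between 4.14 and 13.2 CPM with a median of 8.24 CPM, and pVAD vs. CS gave -0.74 (SE 0.46, exact permutation p = 0.452), or 0.071 without CS replicate 1. Without CS replicate 4 it passed, at -0.97.

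LTF, the iron-binding lactoferrin of secondary granules, varied little. It had a lowest value of 8.58, a median of 9.77 and a highest value of 15.3 CPM at Baseline. In CS it had 7.53, 10.9, 13.8, 8.24 and 8.17 CPM, and on pVAD it ran between 8.07 and 12.5 CPM with a median of 9.90 CPM. The 3 time points covered much the same range, with log2 fold changes of -0.17 in CS vs. Baseline and 0.0068 in pVAD vs. CS (SE 0.24 in both). The libraries lowest in LTF at each time point were all from replicate 1. In CS that was the animal whose MPO was highest, although both proteins are stored in neutrophil granules.

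S100A8, which pairs with S100A9 in the alarmin calprotectin, ran between 2.05 and 8.54 CPM in CS, against 0.845 to 4.16 CPM at Baseline, with CS replicate 1 highest. Its log2 fold changes were 0.97 (SE 0.56) in CS vs. Baseline and -1.07 (SE 0.56) in pVAD vs. CS, neither past the threshold by edgeR. DESeq2 called it lower on pVAD than in CS, at -1.09. Without CS replicate 1 the edgeR values were 0.38 and -0.48. MMP9 and MMP8 encode the gelatinase and the collagenase of neutrophil granules. MMP9 was highest in CS replicate 1 at 20.8 CPM. MMP8 was highest in Baseline replicate 6, at 6.84 CPM, the library that was lowest for MMP9 at that time point.

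The oxidase was represented by 3 of 4 listed genes, since CYBB, the catalytic subunit, had no row under its symbol. NCF4 and NCF1 encode the cytosolic subunits p40phox and p47phox, and CYBA the membrane subunit p22phox. NCF4 had 106, 58.4, 57.8, 72.4 and 66.9 CPM in CS replicates 1 to 5, against a lowest value of 34.6, a median of 62.9 and a highest value of 75.9 CPM at Baseline. All CS libraries but the first lay within the Baseline range, and the log2 fold change of 0.29 (SE 0.22, exact permutation p = 0.277) did not pass. On pVAD, NCF4 ran between 34.4 and 73.8 CPM, much as at Baseline, with replicate 6 lowest at both times.

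NCF1 had 11.5, 4.43, 6.09, 7.69 and 9.50 CPM in CS, against a lowest value of 3.15, a median of 5.84 and a highest value of 7.20 CPM at Baseline. The 3 highest CS libraries exceeded the Baseline range and the others did not. The log2 fold change was 0.50 (SE 0.30, exact permutation p = 0.119), and it passed at 0.65 when CS replicate 2 was left out. In pVAD vs. CS the change was -0.40 (SE 0.30). In the human genome NCF1 has near-identical pseudogenes, and how reads of such copies in the pig were counted is not given in the sources used here, so the NCF1 level is uncertain. CYBA had the widest spread of the 3, with 1.35 to 10.1 CPM at Baseline, 1.07 to 17.2 CPM in CS and 0.591 to 7.33 CPM on pVAD. All 3 oxidase genes had positive log2 fold changes in CS vs. Baseline and negative ones in pVAD vs. CS, and none passed. By edgeR 0 of the 3 had an unadjusted p below 0.05 in either comparison. Without CS replicate 1 the changes of CYBA and NCF4 in CS vs. Baseline were -0.15 and 0.11.

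Of the receptors and adhesion genes 4 of 8 had a row, and 1 passed. ADGRG3 encodes GPR97, an adhesion G protein-coupled receptor found mainly on granulocytes. It had a lowest value of 4.48, a median of 10.2 and a highest value of 14.4 CPM on pVAD, against 30.0, 13.9, 13.6, 14.4 and 13.2 CPM in CS replicates 1 to 5. All CS libraries but the first lay close together, and CS replicate 1 was more than 2-fold above them. Of the pVAD libraries only replicates 1 and 2 reached into the CS range. The mean was 10.2 ± 3.6 CPM on pVAD and 17.02 ± 7.27 CPM in CS (SD, n = 6 and 5). ADGRG3 fell on pVAD relative to CS by 0.74 on the log2 scale (SE 0.29, edgeR p = 0.0171, adjusted p = 0.999), with p = 0.0325 in the exact two-sided permutation test and a lower level in 4 of 5 animals (exact sign-flip p = 0.125). The call was lost without CS replicate 1 (-0.43), without pVAD replicate 6 (-0.58), over the 5 complete animals (-0.58) and with CS replicate 6 included (-0.49), and it held with the replicate block (-0.61). In CS vs. Baseline, where Baseline ran between 7.76 and 15.3 CPM, the log2 fold change of 0.56 (SE 0.29) did not pass by edgeR. The exact permutation test over libraries gave p = 0.0325 and the exact sign-flip test within animals p = 0.125, and the value with the replicate block was 0.36. With 1 library left out it passed in 2 of 17 settings. The values over these 17 ran between 0.26 (without CS replicate 1) and 0.66 (without Baseline replicate 2). Without both CS replicate 4 and pVAD replicate 6 it also passed, at 0.61.

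TREM1, a receptor that amplifies inflammatory responses of myeloid cells, had 28.2, 10.7, 14.4, 14.2 and 9.08 CPM in CS, against a lowest value of 7.69, a median of 10.7 and a highest value of 23.8 CPM at Baseline. CS replicate 1 and Baseline replicate 2 were each far above the rest of their time point. The log2 fold changes were 0.31 (SE 0.33) in CS vs. Baseline and -0.38 (SE 0.33) in pVAD vs. CS, where pVAD ran between 8.47 and 20.0 CPM. The direction in CS vs. Baseline rested on CS replicate 1, and without it the value was -0.033. With CS replicate 6 included, TREM1 passed in both comparisons (3.09 and -3.17), with 1269 reads in that library.

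ITGB2 encodes CD18, the common subunit of the leukocyte integrins. It had 22.3, 11.7, 9.07, 22.9 and 12.7 CPM in CS, against a lowest value of 8.20, a median of 15.2 and a highest value of 17.7 CPM at Baseline. The CS libraries split into 2 high and 3 low values on either side of the Baseline median, and the log2 fold change was 0.14 (SE 0.29). CSF3R, the receptor of granulocyte colony-stimulating factor, had 6.72 to 10.4 CPM in CS and 4.27 to 14.7 CPM at Baseline, a wider range, with a log2 fold change of 0.025 (SE 0.31).

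The enzymes and transcription factors all had rows, and 1 of 6 passed. SPI1 had 30.6, 13.6, 10.5, 18.7 and 15.1 CPM in CS replicates 1 to 5, against a lowest value of 4.91, a median of 11.6 and a highest value of 14.7 CPM at Baseline. Each of the 5 animals was higher in CS than at its own Baseline, by 0.820 to 15.8 CPM, as for 1.78% of all genes, and the exact sign-flip test gave p = 0.0625, the smallest it allows. The mean was 17.7 ± 7.8 CPM in CS and 10.9 ± 3.9 CPM at Baseline (SD, n = 5 and 6). SPI1 rose in CS by 0.69 on the log2 scale (SE 0.32, edgeR p = 0.0398, adjusted p = 1), and the exact two-sided permutation test gave p = 0.0606. On pVAD it ran between 7.09 and 21.7 CPM with a median of 12.6 CPM, and pVAD vs. CS gave -0.42 (SE 0.32, exact permutation p = 0.279). The call in CS vs. Baseline was lost without CS replicate 1 (0.40) and without any of Baseline replicates 2, 3 and 6 and CS replicate 4 (0.54 to 0.67). It was also lost without both CS replicate 4 and pVAD replicate 6 (0.67), over the 5 complete animals (0.54) and with the replicate block (0.50), where the fold change was below 1.5 although the unadjusted p was below 0.05.

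**Figure D2:**
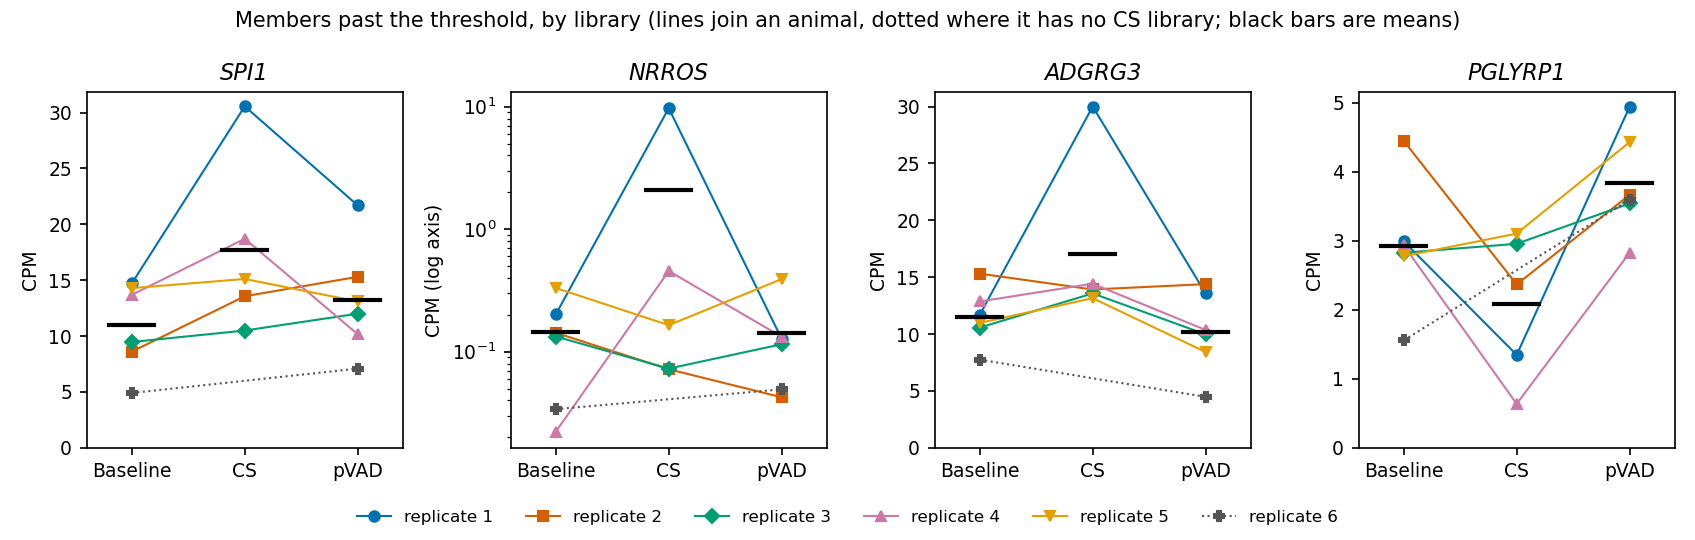
Level in CPM (y axis, logarithmic for NRROS) of the 4 members that passed the threshold, at Baseline, in CS and on pVAD (x axis), with a coloured line for each animal, dotted for replicate 6 that has no CS library here, and a black bar for the mean. The CS point of replicate 1 is the highest of all libraries for SPI1 (30.6 CPM), NRROS (9.72 CPM) and ADGRG3 (30.0 CPM), and PGLYRP1 lies higher on pVAD than in CS in all 5 animals with both.

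The CEBPA and CEBPE factors, which act in granulocyte formation, were read at low levels. CEBPE had 10.9 CPM in CS replicate 1, against 1.39 to 3.32 CPM in the other CS libraries and 0.271 to 4.10 CPM at Baseline. Its log2 fold change of 1.01 (SE 0.64, exact permutation p = 0.284) in CS vs. Baseline came to 0.18 without that library. CEBPA ran between 0.767 and 5.73 CPM in CS and 0.406 and 4.96 CPM at Baseline.

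PADI4 citrullinates histones when neutrophils release their chromatin. It had 9.19, 13.5, 16.8, 19.7 and 16.9 CPM in CS, against a lowest value of 7.86, a median of 16.2 and a highest value of 26.6 CPM at Baseline. Here CS replicate 1 was the lowest CS library. The log2 fold changes were -0.063 (SE 0.31) in CS vs. Baseline and 0.070 (SE 0.31) in pVAD vs. CS, with 6.50 to 23.9 CPM on pVAD. ALOX5, the 5-lipoxygenase that starts leukotriene synthesis, had 40.9, 21.8, 19.6, 21.7 and 21.3 CPM in CS, against a lowest value of 18.5, a median of 21.8 and a highest value of 26.7 CPM at Baseline. Apart from CS replicate 1 the CS libraries lay within the Baseline range, with a log2 fold change of 0.15 (SE 0.23). ALOX5AP, which presents arachidonic acid to ALOX5, was also highest in CS replicate 1, at 15.2 CPM, although only slightly above Baseline replicate 2 at 14.7 CPM.

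Of the 10 listed monocyte and macrophage genes 9 had a row, 8 were read and 1 passed. NRROS encodes a membrane protein of myeloid cells that limits reactive oxygen species and holds latent TGF-beta. At Baseline it had a lowest value of 0.0222, a median of 0.138 and a highest value of 0.331 CPM. In CS it had 404 reads in replicate 1, which is 9.72 CPM, and 0.0718, 0.0727, 0.455 and 0.165 CPM in replicates 2 to 5. On pVAD it ran between 0.0424 and 0.391 CPM, with 1 to 18 reads in each library other than CS replicate 1. Thus a single library carried the difference. The fitted log2 fold changes were 3.90 (SE 1.18, edgeR p = 0.00316, adjusted p = 1, exact permutation p = 0.136) in CS vs. Baseline and -3.83 (SE 1.16, edgeR p = 0.0032, adjusted p = 0.999, exact permutation p = 0.119) in pVAD vs. CS. The level was higher in CS than at Baseline in 2 of 5 animals. Without CS replicate 1 the values were 0.41 and -0.36, with the replicate block 1.68 and -1.67, and none of these passed.

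CSF1R, the receptor of macrophage colony-stimulating factor, had 80.3, 24.3, 33.0, 19.8 and 25.6 CPM in CS, against a lowest value of 9.21, a median of 30.5 and a highest value of 43.7 CPM at Baseline. CS replicate 1 exceeded every other library and the other 4 lay within the Baseline range. The log2 fold changes were 0.32 (SE 0.35) in CS vs. Baseline and -0.51 (SE 0.35) in pVAD vs. CS, where pVAD ran between 15.6 and 41.0 CPM, and without CS replicate 1 they were -0.19 and 0.0029. AIF1, a cytoskeletal protein of macrophages, behaved alike, with 19.3 CPM in CS replicate 1 and 5.46 to 9.54 CPM in the other CS libraries.

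The macrophage surface receptors did not share this pattern. MRC1, the mannose receptor, had 24.5, 25.9, 33.3, 21.1 and 30.3 CPM in CS, against a lowest value of 14.9, a median of 29.1 and a highest value of 31.5 CPM at Baseline. With 23.4 to 31.6 CPM on pVAD, its 3 time points covered nearly the same range apart from the low Baseline replicate 5. The log2 fold changes were -0.0045 in CS vs. Baseline and 0.033 in pVAD vs. CS (SE 0.19 in both), so that the 2 SE around each span less than 1.5-fold in either direction. MARCO, a scavenger receptor of macrophages, had 3.54 CPM in CS replicate 1, against 11.97 to 16.3 CPM in the other CS libraries and 13.1 to 17.004 CPM at Baseline. MSR1, another scavenger receptor, was highest in replicate 6, with 21.0 CPM at Baseline and 21.7 CPM on pVAD, against 3.97 to 13.7 CPM in the other 15 libraries. It passed in pVAD vs. Baseline only without Baseline replicate 6, at a log2 fold change of 0.75 beside 0.37 with all libraries. CD14, the co-receptor for endotoxin, had 6.92 CPM in CS replicate 4 and 1.84 to 2.89 CPM in the other CS libraries, against 0.689 to 2.98 CPM at Baseline. Its log2 fold change of 0.93 (SE 0.58, exact permutation p = 0.0801) hardly moved without CS replicate 1, and was 0.48 without CS replicate 4. CD68, a lysosomal protein of macrophages, lay between 0.397 and 5.13 CPM over all libraries.

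**Figure D3:**
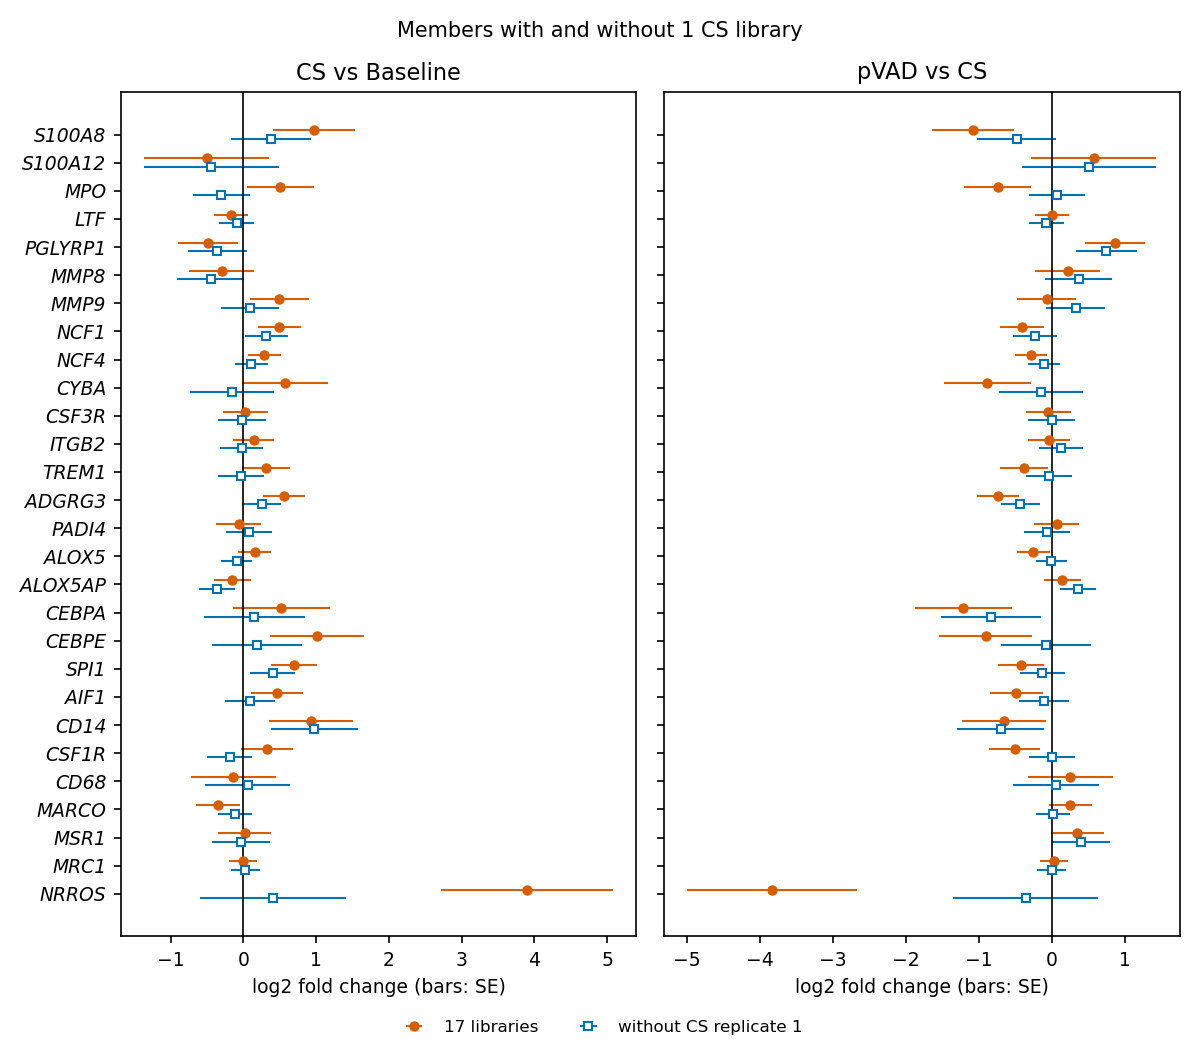
Log2 fold change of the 28 members (rows) in CS vs. Baseline (left) and pVAD vs. CS (right), with SE bars, fitted with all 17 libraries (filled circles) and without CS replicate 1 (open squares). The NRROS values of 3.90 and -3.83 come to 0.41 and -0.36 without that library, and most other members move towards 0, while CD14, MSR1 and MRC1 hardly move.

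Of the differences between libraries of a time point, a share of 54.7% lay between animals for the median member, on the log2 CPM scale with each time point centred, beside 48.4% for the median gene. The share is high for any gene because 6 animals hold only 17 libraries, and it is given as a description. NCF4 (79.9%), SPI1 (79.0%), S100A12 (78.8%) and CSF3R (78.2%) had the highest shares of the members. CEBPA (19.3%), CD68 (19.6%) and MRC1 (21.6%) had the lowest.

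**Figure D4:**
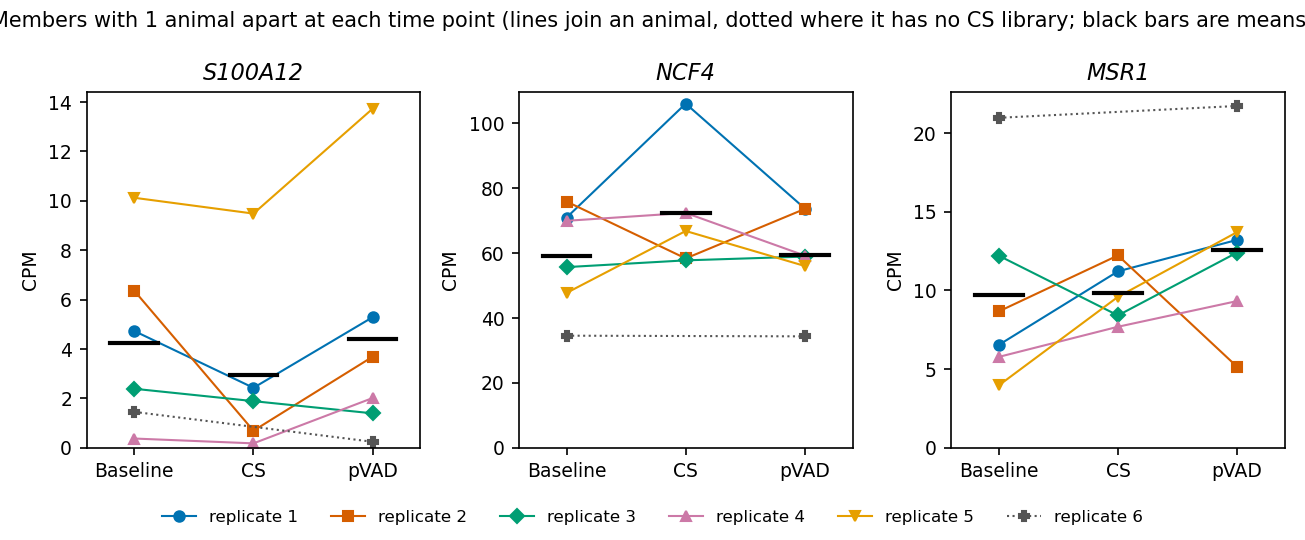
Level in CPM (y axis) of 3 members at Baseline, in CS and on pVAD (x axis), with a coloured line for each animal, dotted for replicate 6, and a black bar for the mean. Replicate 5 is above all others for S100A12 at each time point (10.1, 9.48 and 13.7 CPM), and replicate 6 is lowest for NCF4 (34.6 and 34.4 CPM) and highest for MSR1 (21.0 and 21.7 CPM).

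Of the 8 genes without a row by symbol, 4 have a row whose NCBI gene identifier names them, and these were read outside the membership rule. LCN2, the siderophore-binding lipocalin of neutrophil granules, was at 0 in all 17 libraries. CXCR2, a receptor for neutrophil-attracting chemokines, had 33.6 CPM in CS replicate 1, against 5.79 to 6.94 CPM in the other CS libraries and 4.76 to 12.5 CPM at Baseline. Reads of CXCR2 and of its close paralog CXCR1 may be shared, which was not tested. S100A9 had 1.55 to 4.17 CPM in CS and 1.12 to 3.30 CPM at Baseline. ADGRE1, the F4/80 antigen of macrophages in the mouse, had 21.9 to 39.2 CPM at Baseline, 26.4 to 34.5 CPM in CS and 30.9 to 39.9 CPM on pVAD. It was higher on pVAD than in CS in 5 of 5 animals, at a log2 fold change of 0.21 (SE 0.17) that did not pass. CXCR1, FPR1, FPR2 and CYBB were not analysed here.

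Other genes of the same cells were read from the second list of 38, of which 33 had a row and 30 were read. ELANE, PRTN3 and CD177, a pair of primary granule proteases and a neutrophil surface protein, were at 0 in all 17 libraries. By edgeR 0 of the 30 passed in any of the 3 comparisons and 0 had an unadjusted p below 0.05. DESeq2 called 1, TYROBP, a signalling adaptor of myeloid receptors, lower on pVAD than in CS (log2 fold change -1.06), beside 3.2% of all genes. The median log2 fold changes were 0.19, -0.20 and 0.053 for CS over Baseline, pVAD over CS and pVAD over Baseline, with 21, 11 and 17 of 30 above 0, beside medians of -0.0049, 0.018 and 0.014 over all genes. Without CS replicate 1 edgeR called RAC2 (0.65), a GTPase of the oxidase, and CX3CR1 (0.72), a chemokine receptor of monocytes, higher in CS than at Baseline, beside 1.86% of all genes. FCER1G (0.84), an adaptor of Fc receptors, was then called higher on pVAD than at Baseline, beside 1.15% of all genes. RAC2, CX3CR1, FCER1G, TYROBP and the 3 genes at 0 were named after their values were seen.

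Markers of other sources moved with some of these libraries. The 29 members summed to 574 CPM in CS replicate 1, against 302 to 332 CPM in the other CS libraries. The sum of the second list of myeloid genes did not stand apart there, at 490 CPM, against 435 to 553 CPM in the other CS libraries. Such a sum is carried mostly by abundant genes, such as ITGAM with 60.6 to 104 CPM in CS. Which single genes of that list were highest in CS replicate 1 was not counted. In the same library the platelet list (4 of 8 with a row, 1 of them at 0) summed to 60.2 CPM, against 11.2 to 21.5 CPM in the other CS libraries. The endothelium list (5 of 6 with a row) summed to 144 CPM there, against 89.9 to 119 CPM. The red cell list (7 of 8 with a row, 2 at 0) was lowest there at 333 CPM, and the T and NK cell list (8 of 8, 1 at 0), at 61.2 CPM, lay within the range of the others, which reached 497 CPM in CS replicate 4. The part of these sources in the members' differences was not tested. By time point the platelet list ran between 14.7 and 39.6 CPM at Baseline, 11.2 and 60.2 CPM in CS and 8.27 and 108.5 CPM on pVAD, and the endothelium list between 109 and 127 CPM, 89.9 and 144 CPM and 113 and 130 CPM.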

How the data were processed

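RNA of 18 serum libraries was sequenced, and the authors deposited raw counts per gene (reads trimmed with Trim Galore 0.4.4, aligned with STAR 2.4.2a and counted with featureCounts under R 3.6.0; the genome build and counting by strand are not given in the sources used here, so reads of overlapping antisense genes cannot be told apart). Symbols are those of the deposited table. The members and lists were chosen with earlier results of these data known. Counts of 17 libraries were tested with edgeR 4.0.16 in R 4.3.3 (quasi-likelihood, TMM, at least 5 reads in total, time point only), calling a fold change over 1.5 at p below 0.05 before adjustment, the thresholds of the study, with Benjamini-Hochberg adjusted p over 26146 genes beside it. The deposited sample sheet ties each replicate number to 1 pig. Deviations from the time point means correlated at a median r of 0.13 between libraries of an animal (-0.23 to 0.58, 16 pairs) and -0.020 between animals (80 pairs), and the fit with the replicate block is an alternative. Named in full are all members called and the 2 of highest mean CPM in each role group. Alternatives were DESeq2 1.42.0, other scalings, filters and library sets, and leaving out each library. No sequences are shown.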

Additional observations from a re-analysis of the deposited data

Results flagged for a closer look

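Each time point of the named members and of 3 genes read outside the membership rule was searched for a library far from the others, and 11 of 51 groups held one, of which 7 were CS replicate 1. Chance gives such a library in about 1 of 20 groups when groups are independent and values normally distributed. These groups share libraries, and some of these members were named because they were called, so 11 of 51 is a description. In CS replicate 1, MPO reached 38.8 CPM (next CS library 12.7), TREM1 28.2 CPM (14.4), ADGRG3 30.0 CPM (14.4), ALOX5 40.9 CPM (21.8), CSF1R 80.3 CPM (33.0), NRROS 9.72 CPM (0.455) and CXCR2 33.6 CPM (6.94). At Baseline, TREM1 was high in replicate 2 at 23.8 CPM (next 13.2), MRC1 was low in replicate 5 at 14.9 CPM (next 28.6) and S100A9 was low in replicate 6 at 1.12 CPM (next 2.56). On pVAD, NRROS was high in replicate 5 at 0.391 CPM (next 0.132).

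CS replicate 6, which was outside the main comparisons, held reads for 4 members at levels above every Baseline library, as CPM without TMM scaling. TREM1 was at 511 there, against at most 21.2 at Baseline. PGLYRP1 was at 209, against at most 4.14, SPI1 was at 50.7, against at most 14.4, and LTF was at 38.6, against at most 15.4. The other members had 0 reads in that library. Among them was NCF4, which had 698 or more reads in each of the 17 libraries, all of greater depth. The values of the 4 members are therefore given as a description only.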

How the results depend on the processing

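In CS vs. Baseline 2 members were called. The count was 1 (SPI1) by DESeq2 and by filterByExpr, of 27 tested, since NRROS was not tested there, 1 (NRROS) over the 5 animals with all 3 time points, 4 with all 18 libraries (NRROS, PGLYRP1, SPI1 and TREM1) and 0 at an adjusted p below 0.05 by edgeR, and ran between 0 and 3 when a library was left out, with 1 (NRROS) without Baseline replicate 3, Baseline replicate 6 or CS replicate 4. Beside these, DESeq2 called 3.57% of all genes and the fit of the 5 animals 3.12%. In pVAD vs. CS 3 members were called, as by DESeq2 (of 27, S100A8 in place of NRROS, beside 3.2% of all genes), against 0 at an adjusted p below 0.05 and 0 to 4 when a library was left out, with 1 (NRROS) without pVAD replicate 6. In pVAD vs. Baseline 0 were called, or 0 to 1 with a library left out. Leaving out CS replicate 1 alone brought the first 2 counts to 0, beside 1.86% and 1.48% of all genes.

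With the replicate block the count in CS vs. Baseline was 1 (S100A12 in place of SPI1 and NRROS), beside 2.63% of all genes. In pVAD vs. CS it was 2, with NRROS lost, beside 1.87% of all genes. The block changed no other call.

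PGLYRP1 reversed with all 18 libraries, to 3.74 in CS vs. Baseline and -3.35 in pVAD vs. CS. Leaving out a library reversed MPO, which ran between -0.30 and 0.74 in CS vs. Baseline and between -0.97 and 0.071 in pVAD vs. CS, and CSF1R, between -0.69 and 0.0029 in pVAD vs. CS. Of 1128 alternative values of the named members, 73 other changes of sign were in values below their SE and not called. Genes called over the whole table in pVAD vs. Baseline were 218, against 110 by filterByExpr. The depth of CS replicate 6, 2484066 counts, limits any use of that library. So does the uneven spread of its reads, with 1269 for TREM1 and 0 for NCF4. The cause of these dependences was not tested. The settings with the 5 complete animals and without CS replicate 4 and pVAD replicate 6 were chosen after seeing the data.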
